A study of Sus scrofa with 6 samples.

Results

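Matrix metalloproteinases (MMPs), the ADAMTS proteases, the ADAMTS-like proteins and the tissue inhibitors of metalloproteinases (TIMPs) were compared in the abdominal aorta of Wuzhishan miniature pigs with diet-induced atherosclerosis. Genes were taken by name from the deposited expression table, as symbols that begin with MMP or TIMP and a digit or with ADAMTS, which gave 46 of the 30477 genes, with 18 MMP, 19 ADAMTS, 5 ADAMTS-like and 4 TIMP genes. All pigs were male. The NC group (3 pigs) received normal chow and the HFCF group (3 pigs) received a diet high in fat, cholesterol and fructose, both for 6 months, and each pig gave 1 RNA library. The labels give an age of 3 to 4 months, whereas the methods give an older age at purchase. Whole pieces of aortic wall were sequenced, so fewer cells of a type and less RNA per cell cannot be told apart in any value below.

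MMPs are zinc-dependent proteases that are made as inactive precursors and together degrade most components of the extracellular matrix. ADAMTS proteases are secreted relatives that bind matrix through thrombospondin repeats, and they include the hyalectanases that cleave versican and aggrecan, the procollagen N-proteinases and the protease of von Willebrand factor. ADAMTS-like proteins share the binding modules but have no protease domain, and several of them bind fibrillin microfibrils. TIMPs are small secreted proteins that block the active site of MMPs, and TIMP3 also inhibits ADAM and ADAMTS proteases. In the arterial wall these families are known for remodelling of the media and for thinning of the fibrous cap of plaques.

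Values were in FPKM, the number of sequenced fragments scaled to gene length and library size. Low values gave relative depths of 1, 1.09 and 1.37 for NC pigs 1 to 3 and of 1.03, 1.05 and 1.07 for HFCF pigs 1 to 3, and the absolute depth is not known. Smooth muscle markers of the labelled tissue were abundant, with ACTA2 (smooth muscle actin) between 3359 and 9145 FPKM in all 6 libraries. The summed FPKM of 12 macrophage markers was 58.8 to 70.6 in the NC pigs and 2071, 901.8 and 814.8 in HFCF pigs 1, 2 and 3, with all 12 markers higher in the HFCF group. Of 10 contractile smooth muscle markers, 6 were lower and 1 was higher in the HFCF group. HFCF pig 1 stood apart, with 94.3 summed FPKM of 3 neutrophil markers against 11.9 and 5.40 in the other HFCF pigs, and 11.6 of 6 T cell markers against 3.33 and 2.70. NC pig 3 stood apart within the NC group, with 37.6 summed FPKM of 6 adipocyte markers against 190.3 and 297.3 in the other NC pigs. The HFCF pigs had 133, 88.5 and 103, below NC pigs 1 and 2 and above NC pig 3. NC pig 3 was also the lowest NC pig for endothelium markers (122.6 against 194.8 and 222.2) and fibroblast markers (587.1 against 760.9 and 1106). The part of these cell types in the values below was not tested.

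Of the 46 genes, 39 passed the filter of a mean of at least 0.1 FPKM and were tested. In limma, 7 of the 39 genes (17.9%) had an adjusted p under 0.05, against 28.9% of all 15384 tested genes. MMP19, MMP23B and TIMP1 were higher in the HFCF group, where 22.8% of all tested genes were called higher. ADAMTS4, ADAMTS8, ADAMTSL1 and TIMP3 were lower, where 6.16% of all tested genes were called lower. This split depended on the scaling, and with median-ratio scaling 1 of the genes was called higher and 6 lower, among 2035 higher and 1982 lower calls over 15360 tested genes. The values of the 3 HFCF pigs lay wholly above those of the 3 NC pigs in 5 of the 39 genes, against 36.1% of all tested genes, and wholly below in 6, against 12.1%. The median log2 fold change of the 39 genes was 0.05, and that of all tested genes was 0.32. Without HFCF pig 1 the calls were 3 higher and 3 lower, and without NC pig 3 they were 2 higher and 4 lower. The called genes differed from those named above. Without HFCF pig 1 the calls of ADAMTS8, TIMP3 and TIMP1 were lost and ADAMTSL4 and MMP11 were called. Without NC pig 3 those of ADAMTS4, ADAMTS8 and TIMP1 were lost and ADAMTS15 and MMP2 were called. Without NC pig 2, or without HFCF pig 2, 2 genes were called higher and 0 lower in limma, although ADAMTS4, ADAMTS8, ADAMTSL1 and TIMP3 kept negative log2 fold changes. Before adjustment these 4 genes still passed 0.05 in limma in both cases, apart from TIMP3 without HFCF pig 2. Without NC pig 1 the calls were 3 higher and 1 lower, and without HFCF pig 3 they were 2 higher and 2 lower.

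**Figure D1:**
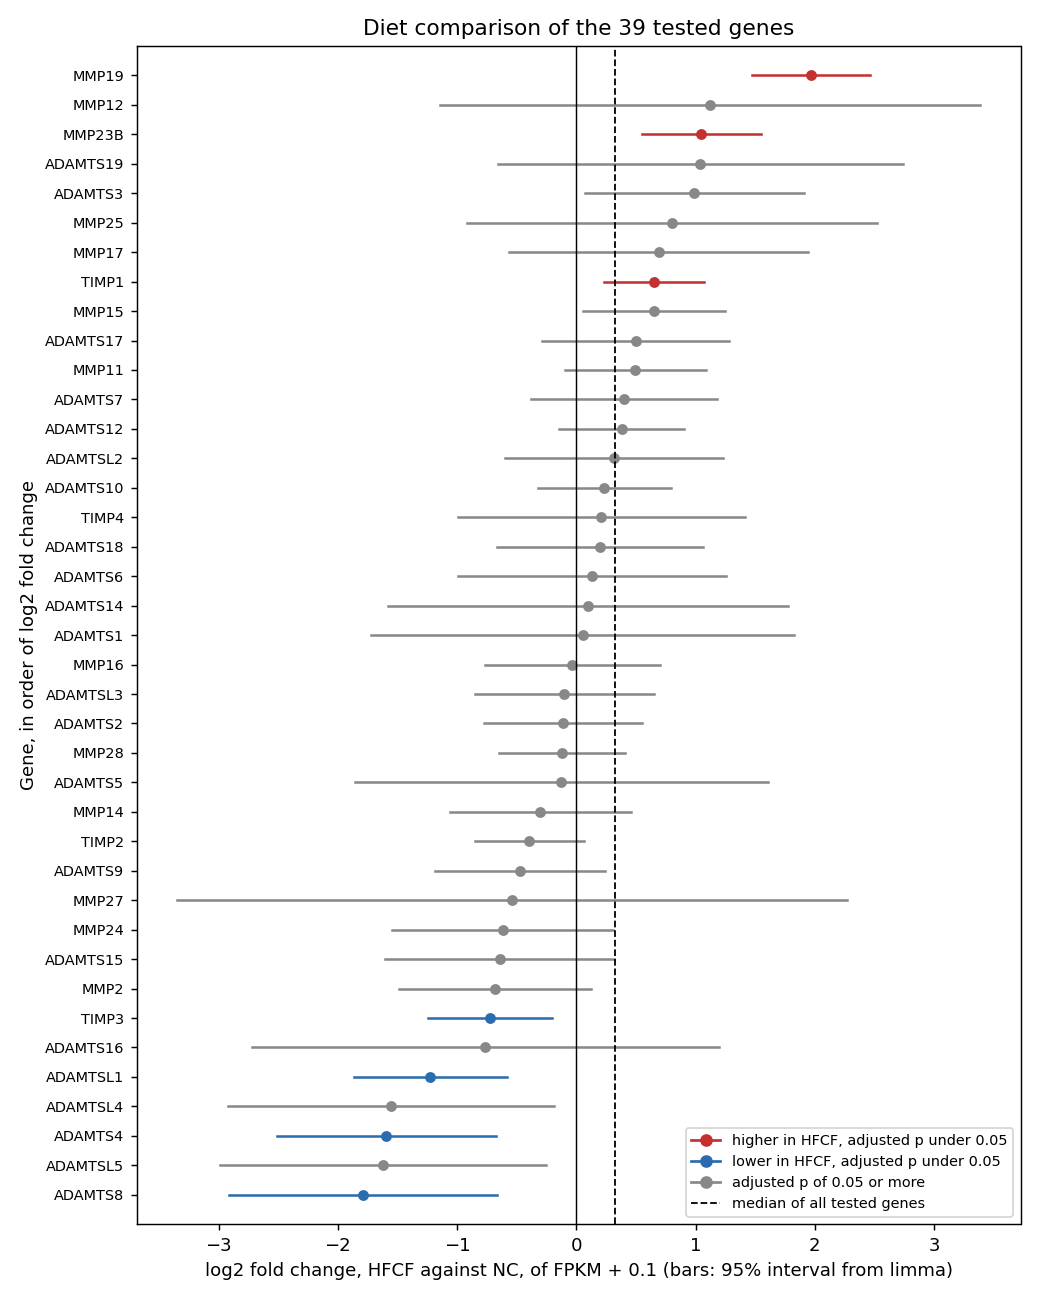
Log2 fold change of FPKM + 0.1 between the HFCF and NC groups for each of the 39 tested genes (points), with the 95% interval from limma (bars), in red or blue where the adjusted p was under 0.05. The 3 red genes lie to the right of the dashed line, the median of all tested genes at 0.32, and the 4 blue genes lie to the left of 0.

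Levels spanned a wide range. TIMP3, TIMP1 and TIMP2 were the 3 highest genes of the set, with means over the 6 pigs of 259.1, 192.9 and 192.2 FPKM, and each lay above the 98th percentile of all tested genes. TIMP1 was below TIMP2 in each NC pig and above it in each HFCF pig. MMP2 (97.7 FPKM), ADAMTS1 (81.7 FPKM) and MMP28 (73.0 FPKM) followed, with ranges over the pigs that overlapped. At the other end, 11 of the 39 tested genes had a mean under 1 FPKM, and 7 genes did not pass the filter. The summed FPKM of the 18 MMP genes was 333.5, 336.6 and 242.1 in NC pigs 1 to 3 and 282.1, 351.5 and 284.1 in HFCF pigs 1 to 3, so the groups overlapped. The summed FPKM of the 4 TIMP genes was 720.2, 691.0 and 674.8 in the NC pigs against 571.4, 596.6 and 616.9 in the HFCF pigs, with no overlap. Within a pig, the ratio of the MMP sum to the TIMP sum was 0.436 ± 0.068 (SD, n = 3) in the NC group against 0.514 ± 0.067 (SD, n = 3) in the HFCF group, a difference close to 1 SD with overlapping values.

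**Figure D2:**
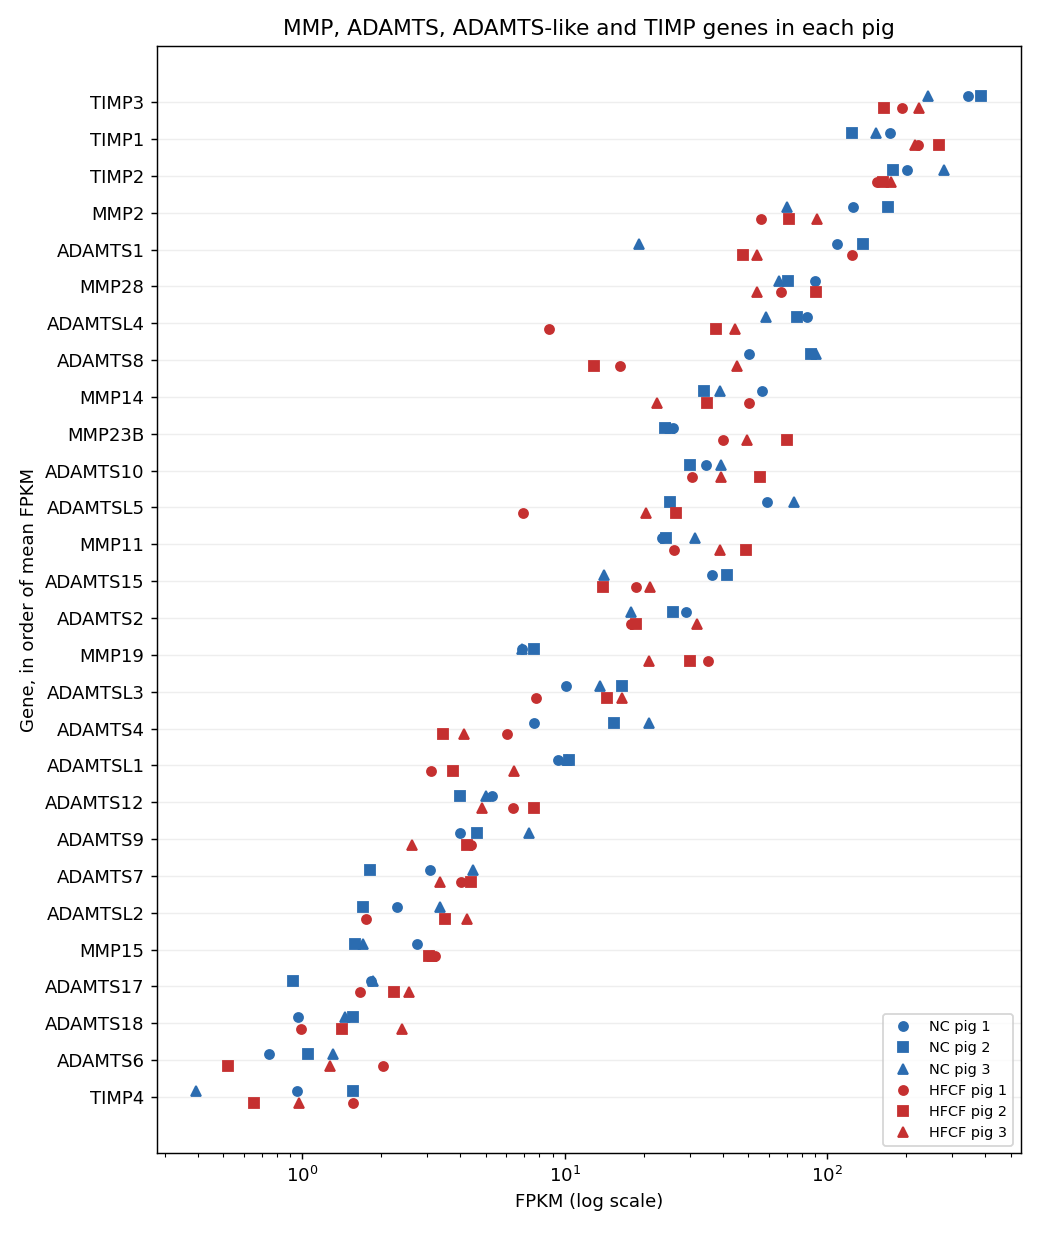
FPKM (log axis) of the 28 genes with a mean of at least 1 FPKM in each of the 3 NC pigs (blue) and the 3 HFCF pigs (red), with genes in order of their mean. The points of MMP19, MMP23B, ADAMTS4, ADAMTS8 and ADAMTSL1 separate by colour, whereas those of ADAMTS1 and MMP28 mix.

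MMP19 (ENSSSCG00000000368) had the largest positive log2 fold change of the 39 genes in the fit reported here. It is a secreted MMP known to cleave basement membrane components such as type IV collagen and nidogen. Its level was 6.89, 7.63 and 6.90 FPKM in NC pigs 1 to 3 and 35.3, 30.1 and 21.0 FPKM in HFCF pigs 1 to 3. Every HFCF pig thus lay above every NC pig, and the NC pigs were close together. The group mean rose 4.03 times, to 28.8 ± 7.21 FPKM from 7.14 ± 0.43 FPKM (SD, n = 3 each), and the log2 fold change was 1.97 (standard error, SE, 0.21, limma adjusted p = 0.00173). This lay 1.64 above the median of all genes. MMP19 alone among the 7 called genes kept its call in each of 15 alternative settings, with adjusted p-values from 0.00153 to 0.013 in limma.

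MMP23B (ENSSSCG00000003351) is an MMP that is anchored in the membrane by its amino-terminal part and lacks the hemopexin domain. Of the 18 MMP genes described here, it was the other that was called higher. Its level was 25.9, 24.1 and 25.3 FPKM in NC pigs 1 to 3 and 40.1, 70.2 and 49.6 FPKM in HFCF pigs 1 to 3. The NC pigs differed by 1.07 times between the highest and the lowest, and every HFCF pig lay above them. The log2 fold change was 1.05 (SE 0.21, limma adjusted p = 0.0125). The call was lost only with median-ratio scaling of the libraries (log2 fold change 0.69, limma adjusted p = 0.0568).

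Neither the gelatinase MMP2 nor its activator MMP14 passed the test. MMP2, which degrades denatured collagen and type IV collagen, was 125.8, 171.1 and 70.3 FPKM in NC pigs 1 to 3 and 56.0, 71.8 and 91.3 FPKM in HFCF pigs 1 to 3. NC pig 3 lay among the HFCF pigs, and the log2 fold change was -0.68 (95% interval -1.49 to 0.12, limma adjusted p = 0.175). Without NC pig 3 the log2 fold change was -1.03 with an adjusted p of 0.0385 (limma). MMP14, the membrane-type protease that activates pro-MMP2 together with TIMP2, was 56.5, 33.8 and 39.2 FPKM in the NC pigs and 50.5, 34.98 and 22.6 FPKM in the HFCF pigs. Its values overlapped, with a log2 fold change of -0.30 (95% interval -1.06 to 0.46). MMP2 made up 37.7%, 50.8% and 29.0% of the MMP sum in NC pigs 1 to 3 and 19.8%, 20.4% and 32.1% in HFCF pigs 1 to 3.

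Other membrane-type MMPs were low. MMP15 was 2.73, 1.58 and 1.71 FPKM in the NC pigs and 3.20, 3.04 and 3.12 FPKM in the HFCF pigs, with no overlap, but its log2 fold change of 0.65 did not pass the test (limma adjusted p = 0.0935). Without NC pig 1 the adjusted p of MMP15 was 0.0436 (limma), its only call in 15 alternative settings. Its log2 fold change was 0.31 with median-ratio scaling and 0.10 with quantile normalization (limma adjusted p = 0.422 and 0.806). MMP16, MMP17 and MMP24 stayed under 1 FPKM in every pig. MMP25, which is known from neutrophils, was 1.51 FPKM in HFCF pig 1 and 0.126 to 0.263 FPKM in the other 5 pigs, and HFCF pig 1 is also the pig with the highest sums of neutrophil, macrophage and T cell markers. The stromelysin MMP11, which is activated inside the cell, was 23.5, 24.4 and 31.3 FPKM in the NC pigs and 26.1, 49.1 and 39.2 FPKM in the HFCF pigs. Its log2 fold change was 0.49 (limma adjusted p = 0.18), and without HFCF pig 1 it was 0.74 (limma adjusted p = 0.0387). That was the only call of MMP11 in 15 alternative settings. With median-ratio scaling its log2 fold change was 0.14 (limma adjusted p = 0.719). MMP28 (epilysin) was the second most abundant of the 18 MMP genes described here. It was 75.5 ± 12.8 FPKM on normal chow against 70.5 ± 18.7 FPKM on the HFCF diet (SD, n = 3 each), with a 95% interval of the log2 fold change from -0.65 to 0.41.

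The measured MMP genes of one cluster, which lie side by side, did not exceed 1.24 FPKM in any pig. In the order of the RefSeq annotation of assembly Sscrofa11.1 these are MMP7, MMP20, MMP27, MMP8, MMP1, MMP3, MMP12 and MMP13, with no other coding gene between neighbours. MMP7 (matrilysin) and MMP20 (the enamel protease) were listed at 0 in all 6 libraries. The collagenases MMP8 and MMP13 reached at most 0.0413 and 0.0335 FPKM. The gene that the table names MMP3, a stromelysin, reached at most 0.0137 FPKM, and a newer name table gives its identifier (ENSSSCG00000014985) to the collagenase MMP1, so 1 of these neighbours has no value here. MMP12, the macrophage metalloelastase, was listed at 0, 0.028 and 0.301 FPKM in NC pigs 1 to 3 and at 1.07, 0 and 0.352 FPKM in HFCF pigs 1 to 3. Its groups overlapped, and the log2 fold change of 1.12 had a 95% interval from -1.14 to 3.39 (limma adjusted p = 0.412). The log2 fold change of MMP12 was 0.30 without HFCF pig 1 and 2.08 without HFCF pig 2. With 1 added to the FPKM values in place of 0.1 it was 0.36. MMP27 varied from 0.0105 to 1.15 FPKM within the NC group and from 0 to 1.24 FPKM within the HFCF group. Neither MMP12 nor MMP27, the tested genes of the cluster, passed the test.

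Among the hyalectanases, which cleave versican and aggrecan, ADAMTS4 and ADAMTS8 fell. ADAMTS8 (ENSSSCG00000015249), which is also known as an inhibitor of angiogenesis, was 50.4, 86.9 and 90.8 FPKM in NC pigs 1 to 3 and 16.2, 12.9 and 45.2 FPKM in HFCF pigs 1 to 3. No HFCF pig reached the lowest NC pig, but HFCF pig 3 came close to it. The mean fell to 24.8 ± 17.8 FPKM from 76.0 ± 22.3 FPKM (SD, n = 3 each), and the log2 fold change was -1.79 (SE 0.48, limma adjusted p = 0.0309), which lay 2.11 below the median of all genes. The adjusted p of ADAMTS8 was between 0.0545 and 0.0911 (limma) without NC pig 1, 2 or 3 or without HFCF pig 1 or 2, and 0.0069 without HFCF pig 3. With no filter on low values it was 0.0526 (limma).

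ADAMTS4 (ENSSSCG00000006359), an aggrecanase, was 7.64, 15.4 and 20.9 FPKM in NC pigs 1 to 3 and 6.04, 3.45 and 4.12 FPKM in HFCF pigs 1 to 3. The groups did not overlap, although NC pig 1 and HFCF pig 1 were close together. The log2 fold change was -1.59 (SE 0.39, limma adjusted p = 0.0232), and without NC pig 2 or 3 or HFCF pig 2 or 3 the adjusted p was between 0.058 and 0.0735. VCAN, the gene of versican, a proteoglycan that ADAMTS4 is known to cleave, was 1.81 to 2.53 FPKM in the NC pigs and 7.23 to 12.7 FPKM in the HFCF pigs (log2 fold change 2.21, limma adjusted p = 0.00217). ACAN, the gene of aggrecan, was 9.23, 2.70 and 3.75 FPKM in NC pigs 1 to 3 and 1.13, 3.14 and 1.75 FPKM in HFCF pigs 1 to 3, with overlapping groups (log2 fold change -1.25, limma adjusted p = 0.113).

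The other hyalectanases did not pass the test. ADAMTS15, the direct neighbour of ADAMTS8 in the RefSeq order, was 36.3, 41.4 and 14.1 FPKM in the NC pigs and 18.7, 14.0 and 21.2 FPKM in the HFCF pigs. Here NC pig 3 lay with the HFCF pigs (log2 fold change -0.64, limma adjusted p = 0.272), and without it the log2 fold change was -1.13 (limma adjusted p = 0.0198). ADAMTS1, the highest ADAMTS gene, was 108.6, 137.0 and 19.2 FPKM in NC pigs 1 to 3 and 124.1, 47.8 and 53.8 FPKM in HFCF pigs 1 to 3. The highest and the lowest NC pig differed by 7.12 times, more than the group means did, and the 95% interval of its log2 fold change ran from -1.72 to 1.83. ADAMTS5, which lies close to ADAMTS1 in the RefSeq order, had the same order of pigs in the NC group, with 0.906, 1.52 and 0.274 FPKM. In the HFCF pigs ADAMTS5 was 1.74, 0.263 and 0.605 FPKM, again highest and lowest in the same pigs as ADAMTS1. ADAMTS9 lay between 2.63 and 7.28 FPKM, with a log2 fold change of -0.47 (limma adjusted p = 0.275). ADAMTS20 did not pass the filter and reached at most 0.124 FPKM.

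The procollagen N-proteinases, which trim fibrillar procollagens, were led by ADAMTS2. It was 28.9, 25.9 and 17.8 FPKM in the NC pigs and 17.9, 18.7 and 31.9 FPKM in the HFCF pigs, with overlapping groups and a 95% interval of the log2 fold change from -0.77 to 0.55. ADAMTS3 was 0.076, 0.155 and 0.131 FPKM in the NC pigs and 0.331, 0.218 and 0.492 FPKM in the HFCF pigs. It was higher in each HFCF pig than in any NC pig, but all values were low and the test was not passed (log2 fold change 0.99, limma adjusted p = 0.0973). The log2 fold change of ADAMTS3 depended on the amount added to the FPKM values. It was 0.26 with 1 added in place of 0.1, and 1.43 with 0.01 added. ADAMTS14 varied more within the groups than between them, from 0.0738 to 0.463 FPKM in the NC group and from 0.0357 to 0.526 FPKM in the HFCF group.

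ADAMTS7 and ADAMTS12, which are known to cleave cartilage oligomeric matrix protein, had log2 fold changes of 0.40 and 0.38 and overlapping groups (adjusted p = 0.394 and 0.235, limma). ADAMTS12 was 5.27, 3.99 and 4.99 FPKM in the NC pigs and 6.37, 7.63 and 4.85 FPKM in the HFCF pigs. Among the remaining ADAMTS proteases ADAMTS10, a fibrillin-binding protease, was the highest, with 34.6, 29.9 and 39.5 FPKM in the NC pigs and 30.5, 55.4 and 39.4 FPKM in the HFCF pigs. Its log2 fold change of 0.23 (95% interval -0.32 to 0.79) turned to -0.12 with median-ratio scaling and to -0.03 after rescaling to TPM. ADAMTS6, ADAMTS16, ADAMTS17, ADAMTS18 and ADAMTS19 lay at or under 2.56 FPKM in every pig and had adjusted p-values from 0.296 to 0.856 (limma). ADAMTS19 was listed at 0 in NC pig 3 and HFCF pig 2 and was 0.0457 and 0.076 FPKM in the other NC pigs and 0.231 and 0.574 FPKM in the other HFCF pigs.

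ADAMTS13, the protease that cleaves von Willebrand factor and is made mainly in the liver, did not pass the filter, with a mean of 0.07 FPKM. It was 0.0956, 0.236 and 0.0761 FPKM in NC pigs 1 to 3 and 0.00885, 0 and 0.00352 FPKM in HFCF pigs 1 to 3. The groups did not overlap, and in the fit with no filter the log2 fold change was -1.12 (limma adjusted p = 0.0358). The 0.1 FPKM added before the log was larger than the value of every pig except NC pig 2, and it reduced this log2 fold change. Without that addition, the HFCF mean was 0.0303 times the NC mean.

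Of the 5 ADAMTS-like genes, ADAMTSL1 alone passed the test, where 6.16% of all tested genes were called lower. ADAMTSL1 (punctin, ENSSSCG00000040366) was 9.42, 10.38 and 10.18 FPKM in NC pigs 1 to 3 and 3.10, 3.75 and 6.42 FPKM in HFCF pigs 1 to 3. The NC pigs were tightly grouped (9.99 ± 0.51 FPKM, SD, n = 3) and the HFCF pigs lay below them (4.42 ± 1.76 FPKM, SD, n = 3). It fell by 1.22 on the log2 scale (SE 0.27, limma adjusted p = 0.0172), and the adjusted p was 0.0535 to 0.0559 without NC pig 1, NC pig 2 or HFCF pig 2.

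ADAMTSL4, a fibrillin-binding protein that is best known from the suspension of the lens, was the highest ADAMTS-like gene, with 83.9, 76.9 and 58.2 FPKM in NC pigs 1 to 3 and 8.75, 37.6 and 44.7 FPKM in HFCF pigs 1 to 3. The groups did not overlap, and HFCF pig 1 was the lowest by a wide margin (log2 fold change -1.55, limma adjusted p = 0.0851). Without HFCF pig 1 the log2 fold change was smaller (-0.81) and the adjusted p was 0.0346 (limma). ADAMTSL5 was 59.0, 25.2 and 74.8 FPKM in the NC pigs and 6.94, 26.6 and 20.4 FPKM in the HFCF pigs. It overlapped between the groups through NC pig 2 and HFCF pig 2, and HFCF pig 1 was again the lowest (log2 fold change -1.62, limma adjusted p = 0.075). With median-ratio scaling ADAMTSL5 passed the test (limma adjusted p = 0.0492). Without HFCF pig 1 its log2 fold change was smaller (-1.04, limma adjusted p = 0.15). ADAMTSL3 and ADAMTSL2 had overlapping groups with log2 fold changes of -0.10 and 0.32 (adjusted p = 0.834 and 0.567, limma). The summed FPKM of the 5 ADAMTS-like genes was 164.8, 130.6 and 160.2 in NC pigs 1 to 3 and 28.3, 86.0 and 92.3 in HFCF pigs 1 to 3. These sums did not overlap.

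Among the inhibitors, TIMP1 rose and TIMP3 fell. TIMP1 (ENSSSCG00000012277), a secreted inhibitor of most MMPs, was 173.0, 124.5 and 153.8 FPKM in NC pigs 1 to 3 and 221.7, 267.7 and 216.4 FPKM in HFCF pigs 1 to 3. TIMP3 (ENSSSCG00000031866), the inhibitor that is bound to the matrix, was 344.2, 386.4 and 241.2 FPKM in NC pigs 1 to 3 and 192.7, 165.3 and 224.5 FPKM in HFCF pigs 1 to 3. TIMP2, which inhibits MMP2 and takes part in its activation, was 202.1, 178.5 and 279.4 FPKM in the NC pigs and 155.4, 162.9 and 175.0 FPKM in the HFCF pigs. The groups did not overlap in any of these 3 genes, with TIMP1 higher and TIMP2 and TIMP3 lower in the HFCF group. Over all tested genes, 36.1% were wholly higher and 12.1% wholly lower in the HFCF pigs. TIMP1 rose by 0.65 on the log2 scale (SE 0.18, limma adjusted p = 0.0326), and thus 0.33 more than the median of all genes. TIMP3 fell by 0.72 (SE 0.22, limma adjusted p = 0.0475), and TIMP2 had a log2 fold change of -0.40 that did not pass the test (95% interval -0.85 to 0.06, limma adjusted p = 0.166). With median-ratio scaling the log2 fold change of TIMP2 was -0.75 and passed the test (limma adjusted p = 0.0316). TIMP4 lay between 0.395 and 1.56 FPKM in all pigs, with overlapping groups.

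The calls of TIMP1 and TIMP3 were the least stable of the 7. TIMP1 kept its call in 3 of 15 alternative settings and TIMP3 in 6, and both kept their direction in all 15. The call of TIMP1 was lost with each of 3 other scalings of the libraries, where its log2 fold change was 0.29 to 0.48, and without any 1 of the 6 pigs (adjusted p 0.0508 to 0.105, limma). The call of TIMP3 held with the 3 scalings (adjusted p 0.017 to 0.0179, limma) and was lost without any 1 pig other than NC pig 3 (adjusted p 0.0567 to 0.146, limma). A ratio of both genes within a pig does not change where its library is multiplied by 1 factor, as with median-ratio scaling or TPM. Quantile normalization can change it. The ratio of TIMP1 to TIMP3 was 0.503, 0.322 and 0.638 in NC pigs 1 to 3 and 1.15, 1.62 and 0.964 in HFCF pigs 1 to 3, and that of TIMP1 to TIMP2 was 0.856, 0.698 and 0.551 in the NC pigs against 1.43, 1.64 and 1.24 in the HFCF pigs. TIMP1 was thus the lower of the pair in all NC pigs in both ratios, and the groups did not overlap. These ratios were chosen after the values had been seen and were not tested, and an exact two-sided permutation test of 3 pigs against 3 cannot go below p = 0.1. The share of TIMP1 in the TIMP sum was 21.6% ± 3.17 in the NC group and 39.6% ± 4.94 in the HFCF group (SD, n = 3 each).

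**Figure D3:**
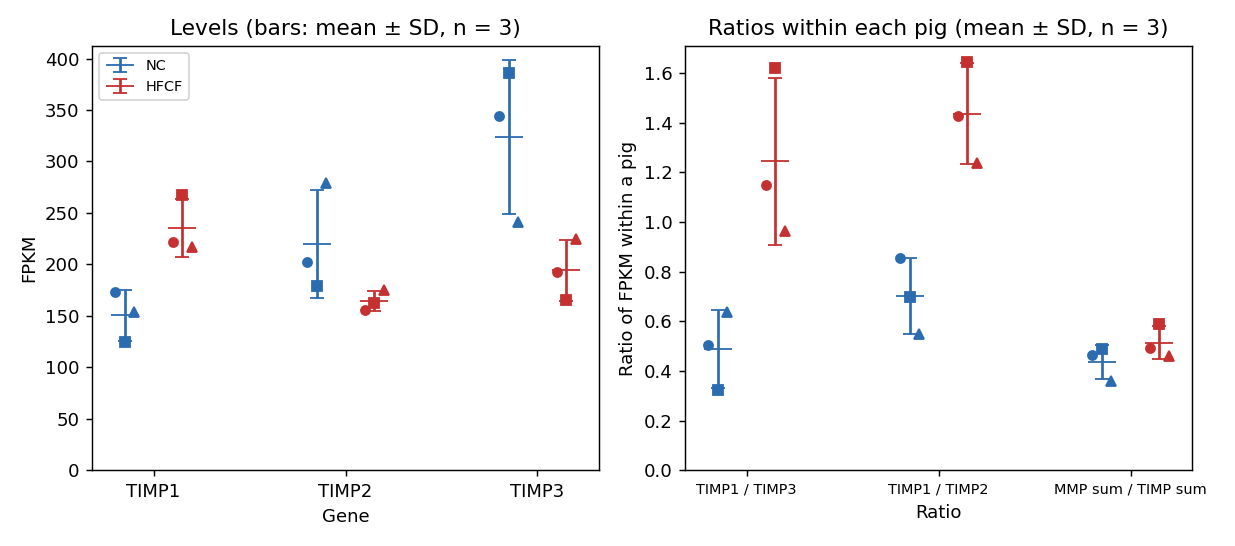
Left, FPKM of TIMP1, TIMP2 and TIMP3 in each NC (blue) and HFCF (red) pig, with the mean and SD of 3 pigs. Right, ratios within each pig, where TIMP1 / TIMP3 and TIMP1 / TIMP2 separate the groups and the ratio of the sums over 18 MMP and 4 TIMP genes does not.

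**Figure D4:**
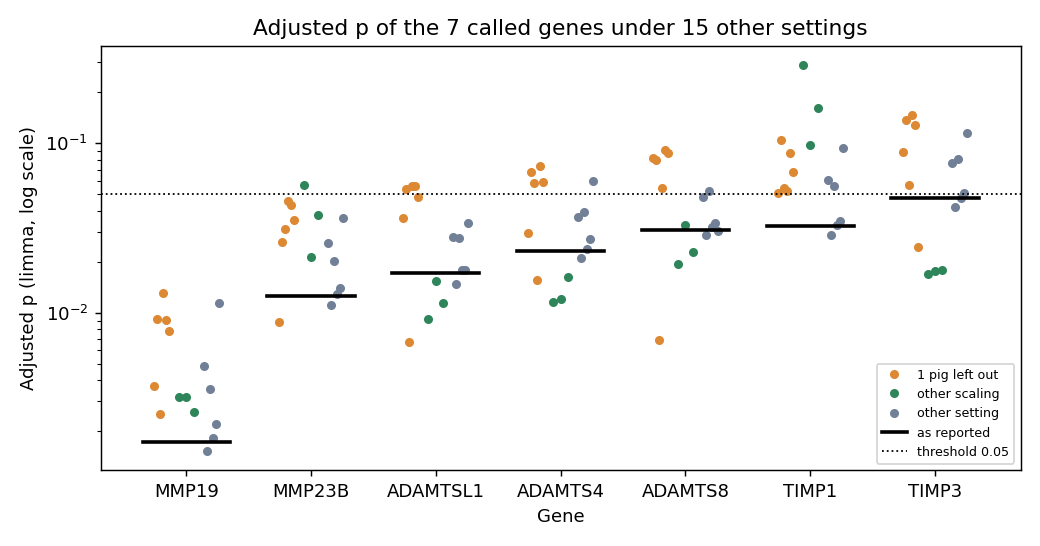
Adjusted p from limma (log axis) of the 7 called genes as reported (black lines) and under 15 other settings (points). MMP19 stays below the dotted threshold of 0.05 in all 15, and TIMP1 stays below it in 3.

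Genes related to these families, or to proteolysis more widely, were taken from fixed lists. Of 15 activators, cofactors and other protease inhibitors described here, 2 were called higher and the other 13 did not pass the test. Their median log2 fold change was 0.19 against 0.32 for all genes. CST3, the cysteine protease inhibitor cystatin C, and SERPINE2, an inhibitor of plasmin-generating proteases, were the higher genes, with log2 fold changes of 1.51 and 1.67 (adjusted p = 0.00561 and 0.0108, limma). The convertase gene FURIN, which processes membrane-type MMPs, had a log2 fold change of -0.07, and RECK, a membrane-bound MMP inhibitor, of 0.23, and neither passed the test.

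Of 11 tested ADAM genes, a related family that includes proteases known to shed cell surface proteins, 4 were called higher and 1 lower, with a median log2 fold change of 1.31 against 0.32 for all genes. Over all tested genes, the background for each of these lists, 22.8% were called higher and 6.16% lower. ADAM28, a protease of leukocytes, had the largest rise, from 0.0847, 0.013 and 0.406 FPKM in NC pigs 1 to 3 to 16.7, 10.8 and 6.83 FPKM in HFCF pigs 1 to 3 (log2 fold change 5.63, limma adjusted p = 0.00166). ADAM19 fell by 0.61 on the log2 scale (limma adjusted p = 0.0232). Of 19 tested substrates, 3 were called higher and 1 lower, no larger a share in either direction than over all genes, with a median log2 fold change of -0.15. SPP1 (osteopontin) had the largest rise among them, 5.98 on the log2 scale (limma adjusted p = 0.00179), and COL4A2, a basement membrane collagen, fell by 1.13 (limma adjusted p = 0.00656). Of 12 tested transcription factors of the AP-1 and ETS families, a list that also holds the Runt factor RUNX2, 3 including RUNX2 were called higher and 3 lower, with a median log2 fold change of 0.49. The largest rise was that of SPI1, a myeloid factor (4.56, limma adjusted p = 0.00117), and the largest fall among the called genes was that of FOSL2 (-1.03, limma adjusted p = 0.024). ETV5 had a log2 fold change of -1.24 that did not pass the test (limma adjusted p = 0.0639).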

How the data were processed

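Total RNA of the abdominal aorta was sequenced as paired-end reads. The submitters' processing notes name cutadapt 1.9, FastQC and HISAT2, and the methods name alignment to an older pig assembly and StringTie. The authors deposited FPKM values with 1 column per pig. A value of 0.0001 FPKM or less was read as 0. Groups came from the sample titles. Since FPKM is relative to the library, a change in abundant genes moves the values of the others. log2(FPKM + 0.1) was fitted over all genes with a mean of at least 0.1 FPKM in limma 3.58.1 and R 4.3.3, with diet as the only factor and empirical Bayes moderation that followed the trend of variance with level. P-values were adjusted by Benjamini-Hochberg across the whole table, and the fit was tested on simulated data. P-values measure the spread between 3 pigs per group.

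Relative depth came from the modal ratio of low FPKM values between libraries in genes with 1 transcript. All members past an adjusted p of 0.05, the highest member of each role, the members below the filter and, in the lists of related genes, the largest rise and fall were to be named, and the other members were described as well. The genes and lists were chosen with earlier results of these data known. Symbols were the same in a newer name table for 44 of 46 genes. The exceptions were MMP3, named MMP1 there, and TIMP2, whose identifier (ENSSSCG00000017164) was absent from it. All 46 symbols occur in the RefSeq annotation. BSG, LRP1, COL4A1, JUN, JUND and BATF had no row of their own name and are missing from the lists of related genes, as are CXCR2 and S100A9 from the neutrophil markers. 1 gene of the MMP family and 1 gene of the lists are not reported here, and they are in neither the members' nor the lists' counts and sums. Gene sequences and read counts were not used here.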

Additional observations from a re-analysis of the deposited data

How the results depend on the processing

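The 15 settings changed the pseudocount (to 1 or 0.01), the filter (none, or a mean of 1 FPKM) and the scaling (3 kinds), or used limma without a variance trend, a replicate block or 5 of the 6 pigs. All 7 called genes kept their direction in all 15. The number of genes called higher was 3, and it was 1 with median-ratio scaling and 2 with no filter, quantile normalization, TPM or the replicate block. The number called lower was 4, and it was 3 with a pseudocount of 1, no filter or no variance trend, 6 with median-ratio scaling, 5 with quantile normalization, 2 with the replicate block and between 0 and 4 with 1 pig left out. With the replicate block, MMP19, MMP23B, ADAMTS8 and ADAMTSL1 kept their calls, and 2772 of all genes were called against 4453. The sample labels state no pairing of equally numbered pigs. Deviations of equally numbered pigs from their group means correlated at 0.0206, -0.0795 and -0.0724 over genes, and those of differently numbered pigs at -0.0694 to 0.127. Such low correlations cannot exclude that equally numbered pigs were handled together. The median log2 fold change of the tested genes was 0.05 as reported, -0.30 with median-ratio scaling, -0.34 with quantile normalization, -0.21 after rescaling to TPM and between -0.16 and 0.20 with 1 pig left out. The median of all genes moved alongside, to -0.01, -0.07 and 0.08 with the scalings, and 50.7%, 49.5% and 59.1% of all calls were then higher, against 78.7% as reported.

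Sign changes were limited to uncalled genes. With median-ratio scaling the log2 fold change was -0.30 for ADAMTS1, -0.12 for ADAMTS10, -0.12 for ADAMTS14, -0.13 for ADAMTS18, -0.19 for ADAMTS6, -0.023 for ADAMTSL2 and -0.11 for TIMP4. With quantile normalization it was -0.047 for ADAMTS1, -0.34 for ADAMTS14, -0.12 for ADAMTS17, -0.45 for ADAMTS18, -0.50 for ADAMTS6, -0.072 for ADAMTS7, -0.23 for ADAMTSL2 and -0.45 for TIMP4. After rescaling to TPM it was -0.21 for ADAMTS1, -0.026 for ADAMTS10, -0.055 for ADAMTS14, -0.045 for ADAMTS18, -0.10 for ADAMTS6 and -0.023 for TIMP4. With 1 pig left out it ranged from -0.83 to 0.58 for ADAMTS1, -0.48 to 0.65 for ADAMTS14, -0.12 to 0.48 for ADAMTS18, -0.38 to 0.039 for ADAMTS2, -0.75 to 0.43 for ADAMTS5, -0.27 to 0.62 for ADAMTS6, -0.31 to 0.23 for ADAMTSL3, -0.23 to 0.13 for MMP16, -0.057 to 1.26 for MMP25, -1.62 to 0.34 for MMP27, -0.32 to 0.056 for MMP28 and -0.26 to 0.61 for TIMP4. The cause was not tested. MMP24 passed the test with quantile normalization (adjusted p = 0.0473, limma), and ADAMTS3 did so without a variance trend (adjusted p = 0.0491, limma). Absolute depth is not known, so the precision of low FPKM values could not be stated.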

Other observations

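The gene of ADAMTSL6 is listed as THSD4, so the selection by name did not take it, and it was looked up after the other values had been seen. THSD4 (ENSSSCG00000004980), which encodes a fibrillin-binding ADAMTS-like protein, was 14.9, 18.1 and 13.0 FPKM in NC pigs 1 to 3 and 4.80, 4.25 and 5.34 FPKM in HFCF pigs 1 to 3. No HFCF pig came near an NC pig, and the gene fell by 1.65 on the log2 scale (standard error 0.18, 95% interval -2.08 to -1.22, adjusted p = 0.00187, limma). PAPLN (papilin), a further matrix protein of this kind, had a log2 fold change of 0.43 with overlapping groups (adjusted p = 0.489, limma).

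Both genes of the ADAMTS1 and ADAMTS5 pair, ADAMTS15, MMP2 and MMP27 were lowest in NC pig 3 within the NC group, as were the adipocyte markers ADIPOQ (39.1, 59.9 and 1.22 FPKM in NC pigs 1 to 3) and PLIN1 (19.1, 33.3 and 0.669 FPKM). Over the 39 tested genes NC pig 3 was the lowest NC pig in 14, against 12 for NC pig 1 and 13 for NC pig 2, and these genes were picked after their values had been seen. The summed endothelium and fibroblast markers were also lowest in NC pig 3 within the NC group. The part of these cell types in the values was not tested.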
